A study of Caenorhabditis elegans with 12 samples.

Results

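Ribosome footprints, the stretches of mRNA that a ribosome shields from nuclease, were compared between Caenorhabditis elegans larvae lacking caspase function and wild type larvae, gene by gene. The comparison took 4 of the 12 libraries of the study by their labels: the 2 footprint libraries of ced-3(n717) worms and the 2 footprint libraries of wild type N2 worms (WT). The 2 footprint libraries of pmk-1(km25) worms, which lack the p38 MAP kinase PMK-1, and the mRNA libraries of ced-3 and WT worms are used beside them. Every library came from whole worms labelled as third-stage larvae (L3) and fed OP50 bacteria. Eggs had hatched without food over 24 h, and the larvae were then fed for 18 h at 20 °C, a time chosen because over 90% of WT worms had reached L3. The stage that ced-3 worms had reached by then is given only by that shared label. The replicates are called independent and biological, but nothing says that they were separate cultures, so the p-values cover the spread among these libraries, which may be technical.

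CED-3 is the caspase that executes programmed cell death in this worm, and in larvae it also cuts regulators of developmental timing such as LIN-28 and LIN-14. A C. elegans larva builds a new collagen cuticle before each moult, and the genes for it are switched on and off in step with the moulting cycle. A footprint count reflects both how much of an mRNA is present and how many ribosomes sit on it, so each footprint value is set beside the mRNA of the same worms where they differ.

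The footprint libraries held 6708805 and 9142466 read counts in ced-3 worms and 7756367 and 9743628 in WT worms, and 12633 genes passed the filter on low counts. Replicates agreed less in ced-3 than in WT worms: 1437 genes differed by more than 2-fold between the 2 ced-3 libraries, against 521 between the 2 WT libraries. The first principal component of the 6 footprint libraries held 62.6% of their variance, and the ced-3 libraries stood at 50.08 and 85.96 on it, against -14.46 and -27.96 for WT. Levels are given in CPM, which corrects each count for the depth of its library, replicate 1 before replicate 2, and a fold is ced-3 minus WT on the log2 scale with its standard error. Adjusted p-values are from edgeR's quasi-likelihood test over all 12633 genes unless DESeq2 is named.

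At an adjusted p below 0.05, 7 genes differed between ced-3 and WT footprints, 0.0554% of the genes tested. They were 4 that rose (0.0317%) and 3 that fell (0.0237%) in ced-3 worms. This count lies on an edge, because 91 genes had an adjusted p below 0.053 and 1192 (9.44%) had one below 0.1. At a threshold of 0.1, set after the values were seen, 805 genes were higher in ced-3 worms (6.37% of those tested) and 387 were lower (3.06%). DESeq2 at 0.05 called 1314 genes (10.4%), of which 859 were higher (6.8%) and 455 lower (3.6%), and 1067 genes were in both of those larger sets, 89.5% of the edgeR set and 81.2% of the DESeq2 set. With 1 WT library left out, whichever of the 2 it was, no gene passed even 0.1. The gene groups below are therefore described by their counts past 0.1 and by DESeq2, with their median fold, against a median fold of 0.01 over all genes. Their counts are to be read against the shares of all genes given here.

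**Figure D1:**
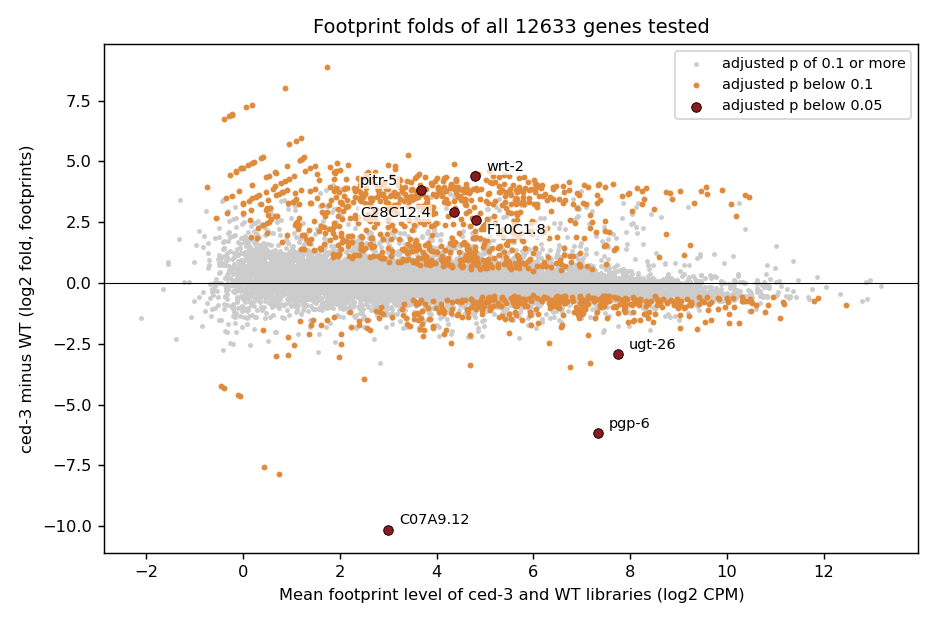
Each point is 1 of the 12633 genes tested, with the mean footprint level of the ced-3 and WT libraries on the x axis (log2 CPM) and the fold of ced-3 over WT on the y axis (log2). The 7 genes with an adjusted p below 0.05 are named, the orange points have an adjusted p below 0.1, and the fold of a gene with no counts in 1 group, such as C07A9.12, depends on the small count that the fit adds.

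Among the genes past 0.1 the directions differed in size. Both sets were picked by the test, and genes with few counts need a larger fold to pass it. The sizes therefore do not compare the directions over all genes. The 805 genes that were higher in ced-3 worms had a median fold of 2.92, and 392 of them were at least 8-fold higher. Their median level was 23.9 CPM in ced-3 worms, against 3.81 CPM in WT worms. The 387 genes that were lower had a median fold of -0.88, and 13 of them were at least 8-fold lower. Their median level was 63.4 CPM in ced-3 worms, against 114.5 CPM in WT worms.

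The gene mutated in these worms was read first. ced-3 (IV:13198261-13204137, WBcel235) had 5.32 and 3.9 CPM in ced-3 worms, against 5.92 and 3.18 CPM in WT worms. The groups overlapped, and the fold was 0.03 ± 0.40 (adjusted p = 0.978). The n717 allele is a point mutation, so this level does not check the labels.

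The 4 genes that rose were separated cleanly between the groups. wrt-2 (X:3092395-3094349), which encodes a secreted hedgehog-related protein of the epidermis, had 43.3 and 62.7 CPM in ced-3 worms, against 3.23 and 1.91 CPM in WT worms. Its fold was 4.38 ± 0.34 (adjusted p = 0.0308). pitr-5 (V:7184849-7188552), a member of the sodium-phosphate transporter family, had 24.8 and 23.3 CPM in ced-3 worms, against 1.48 and 1.91 CPM in WT worms. Its fold was 3.80 ± 0.29 (adjusted p = 0.0308). C28C12.4 (IV:8487483-8488490) had 35.0 and 37.3 CPM in ced-3 worms, against 5.11 and 4.45 CPM in WT worms, a fold of 2.92 ± 0.21 (adjusted p = 0.0308). F10C1.8 (II:5754468-5756686) had 49.8 and 47.2 CPM in ced-3 worms, against 6.86 and 9.10 CPM in WT worms, a fold of 2.60 ± 0.23 (adjusted p = 0.0418). No WT library reached the lower ced-3 library for any of the 4. The submitters' notes do not say whether counting used strand: wrt-2 shares 43 bases with pccb-1 on the other strand and pitr-5 shares 117 bases with F09G2.8, and these partners had folds of only -0.19 and 0.07. F10C1.8 lies 327 bases from ifb-2, whose footprints went the other way.

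The 3 genes that fell included a pair that handles foreign and waste compounds. pgp-6 (X:10871201-10877425), a P-glycoprotein of the ABC transporter family that pumps compounds out of cells, had 5.19 and 3.58 CPM in ced-3 worms, against 322 and 315 CPM in WT worms. Its fold was -6.19 ± 0.45 (adjusted p = 0.0349). ugt-26 (I:4721131-4723982), a UDP-glucuronosyltransferase, which attaches a sugar to small molecules, had 58.4 and 42.4 CPM in ced-3 worms, against 382 and 379 CPM in WT worms. Its fold was -2.92 ± 0.26 (adjusted p = 0.0418). C07A9.12 (III:9725281-9727539) had 0 footprint counts in both ced-3 libraries, against 117 and 154 counts, or 15.7 and 16.3 CPM, in WT worms. With 3 counts over the ced-3 group taken as the limit, it was at least 89.4-fold lower in ced-3 worms (adjusted p = 0.0308). Its mRNA was not fully absent, with 5 and 3 counts in ced-3 worms, against 156 and 142 counts in WT worms. Limits from counts cover counting error only.

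All 7 genes also passed 0.05 in the same direction in mRNA, where 1.77% of genes tested did, 1.4% upwards and 0.369% downwards. All 7 differed from pmk-1 footprints in the same direction as from WT, where 8.61% of genes passed. The pmk-1 libraries were not simply at the WT level: pgp-6 had 32.5 and 67.2 CPM there and ugt-26 had 103.6 and 150.7 CPM, between the ced-3 and the WT values. For C07A9.12, with 17.9 and 18.2 CPM, and F10C1.8, with 6.29 and 8.24 CPM, the pmk-1 libraries were near the WT libraries.

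**Figure D2:**
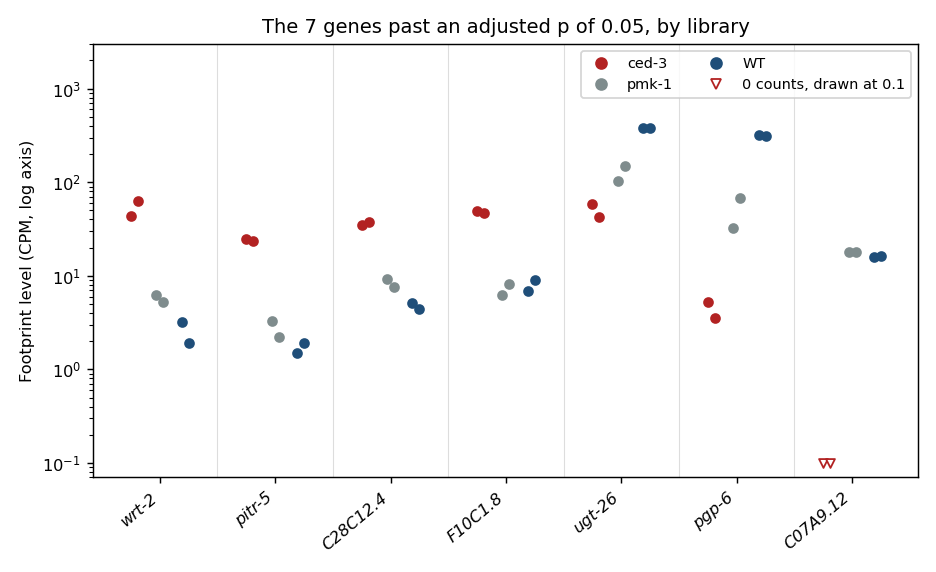
Footprint level (CPM, log axis) of the 7 genes with an adjusted p below 0.05, with 1 point for each library of ced-3, pmk-1 and WT worms. The ced-3 libraries lie above all others for wrt-2, pitr-5, C28C12.4 and F10C1.8 and below all others for ugt-26, pgp-6 and C07A9.12, whose 0 counts are drawn as open triangles at 0.1.

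Beyond the 7 genes and ced-3, a gene named below is either the member of its list with the smallest p or was named after its values were seen, and none of them passed 0.05 by edgeR. The lists hold genes of the worm's pathways and families. Lack of overlap between the groups was common. Of the 12633 genes tested, 3669 had both ced-3 libraries above both WT libraries and 3363 had both below. For a single gene, lack of overlap is therefore weak evidence of a difference.

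Lists of cuticle genes held many genes with higher footprints in ced-3 worms. Past 0.1, 6.37% of all genes were higher, and 6.8% were by DESeq2. Of 16 tested collagens with body shape phenotypes, 9 were higher past 0.1 and 14 by DESeq2, none was lower under either rule, and their median fold was 3.54. Of 28 tested astacin metalloproteases, a protease family with members that loosen the old cuticle, 9 were higher and 1 lower past 0.1 (13 and 1 by DESeq2), with a median of 2.08. Of 28 tested cuticlins, which form the insoluble ribbons of the cuticle, 10 were higher under each rule, with a median of 1.30. Of 37 tested moulting and precuticle genes, 9 were higher past 0.1 and 14 by DESeq2, with a median of 1.29. The large col family of collagens was mixed: of 83 tested, 19 were higher past 0.1 and 30 by DESeq2, none was lower, and the median was 0.84. With no filter on low counts 152 were tested, of which 8 were higher and 2 lower past 0.1. Collagen processing enzymes had 3 of 15 higher under each rule and a median of 0.61. Without ced-3 replicate 2 the medians were 1.30 for the astacins and 1.02 for the cuticlins. They were 0.85 for the moulting and precuticle genes and 0.30 for the collagen processing enzymes. With replicate number as a block, 4 cuticlins were higher and 0 lower past 0.1, where 428 of all 12633 genes were higher.

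lon-3, a collagen that limits body length, had 54.6 and 117 CPM in ced-3 worms, against 7.26 and 4.66 CPM in WT worms, a fold of 3.86 ± 0.47 (adjusted p = 0.0528; DESeq2 adjusted p = 1.55e-12). sqt-1, a collagen whose mutations make worms squat or rolling, had 354 and 853 CPM in ced-3 worms, against 47.6 and 32.6 CPM in WT worms, a fold of 3.91 ± 0.51. dpy-13 had 723 and 2868 CPM in ced-3 worms, against 134.4 and 118.9 CPM in WT worms, a fold of 3.83 ± 0.86. These 3 collagens did not overlap between the groups, and each was higher in ced-3 replicate 2 than in replicate 1. col-172, of the col family, had 7.32 and 13 CPM in ced-3 worms, against 0.538 and 0.529 CPM in WT worms, a fold of 4.22 ± 0.51 (adjusted p = 0.0528). Together the named collagens took 0.538% and 1.47% of the footprint counts in ced-3 worms, against 0.0962% and 0.08% in WT worms.

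The furrow collagens, which mark the circular grooves of the cuticle, and the other named collagens had folds in the same direction but not under the same rules. This split into subgroups was made after the values were seen. Of the 6 furrow collagens none passed 0.1 and 5 passed by DESeq2, with a median of 2.40. Of the 10 others, 9 were higher under each rule, with a median of 3.74. With the ced-3 and WT libraries fitted alone, 15 of the 16 named collagens were higher past 0.1, furrow collagens among them. The furrow collagen dpy-10 had 49.6 and 59.5 CPM in ced-3 worms, against 234.7 and 45.31 CPM in pmk-1 worms and 12.51 and 16.09 CPM in WT worms. It did not overlap between ced-3 and WT, but the 2 pmk-1 libraries, which share in the estimate of the spread, lay far apart. dpy-7 had 31.5 and 44.6 CPM in ced-3 worms, against 137 and 28.1 CPM in pmk-1 worms and 8.34 and 8.99 CPM in WT worms.

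Moulting genes split in a similar way. mlt-9, needed to shed the cuticle, had 83.8 and 160 CPM in ced-3 worms, against 10.8 and 7.83 CPM in WT worms, a fold of 3.72 ± 0.51 (adjusted p = 0.0539). mlt-10 had 52.4 and 135 CPM in ced-3 worms, against 6.32 and 7.72 CPM in WT worms, a fold of 3.73 ± 0.52. mlt-11, a protease inhibitor of the moult, had 308 and 524 CPM in ced-3 worms, against 896 and 151 CPM in pmk-1 worms and 43.9 and 41.7 CPM in WT worms. Its fold of 3.28 ± 0.85 had an adjusted p of 0.102. Not all moulting genes were higher: fbn-1, a fibrillin-like matrix protein, had 61.0 and 55.7 CPM in ced-3 worms, against 71.0 and 97.2 CPM in WT worms, and nhr-23, a nuclear receptor that drives the moulting programme, had 23.2 and 7.47 CPM in ced-3 worms, against 44.5 and 35.7 CPM in WT worms. For fbn-1 and nhr-23 both ced-3 libraries lay below both WT libraries, with folds of -0.53 ± 0.61 and -1.40 ± 0.54 that did not pass either rule. bli-5, a protease inhibitor-like protein of the cuticle, had 9.716 and 26.97 CPM in ced-3 worms, against 2.15 and 1.48 CPM in WT worms. Among the astacins, nas-4 had 14.9 and 18.6 CPM in ced-3 worms, against 3.63 and 2.96 CPM in WT worms, a fold of 2.35 ± 0.32 (adjusted p = 0.0528). The cuticlin-like gene cutl-8 had 10.7 and 27.6 CPM in ced-3 worms, against 1.75 and 1.48 CPM in WT worms.

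**Figure D3:**
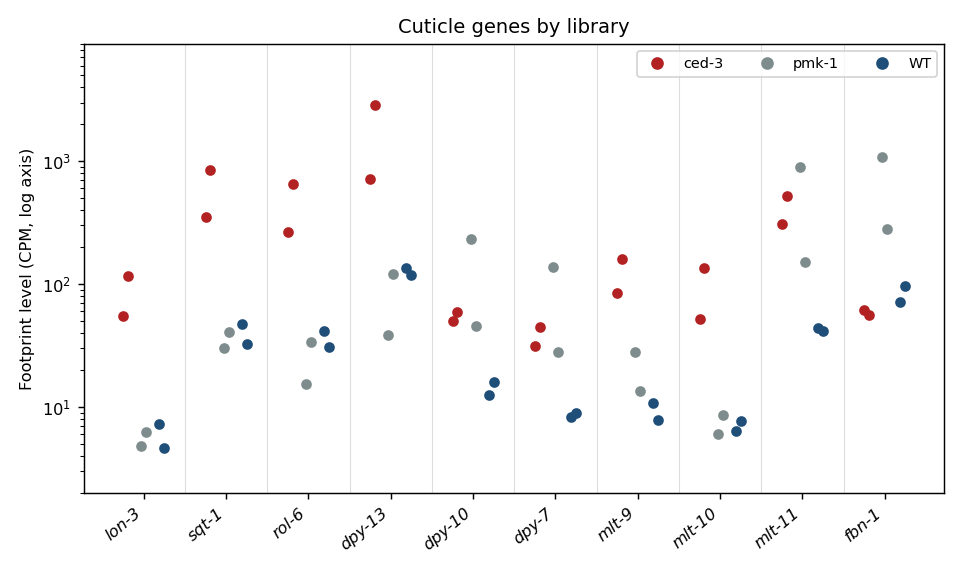
Footprint level (CPM, log axis) of 10 collagen and moulting genes, with 1 point for each library of ced-3, pmk-1 and WT worms. For all but fbn-1 both ced-3 libraries lie above both WT libraries, and for dpy-10, dpy-7, mlt-11 and fbn-1 the highest library is 1 of the 2 pmk-1 libraries.

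The 2 ced-3 libraries differed in these genes by more than WT replicates did. Of the 16 named collagens, 15 were higher in ced-3 replicate 2, by a median of 1.18 on the log2 scale, against a median difference of -0.35 between the WT replicates. Over all genes the median difference between ced-3 replicates was 0.02. The fold of the named collagens from ced-3 replicate 1 alone (without replicate 2) was still 2.67 in the median, and from replicate 2 alone 3.95. How far the worms of each library had gone in the moulting cycle is not given in the labels, so a difference in that timing and the genotype cannot be told apart here.

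Hedgehog-related proteins and patched-related receptors held the largest number of higher genes of any list. These proteins are secreted or membrane proteins of the epidermis, expanded in nematodes, and many act in moulting. Of 63 tested, 32 were higher past 0.1 and 39 by DESeq2, 1 was lower by DESeq2, and the median fold was 2.54. The shares of all genes that were higher were 6.37% and 6.8%. The higher genes past 0.1 came from each branch: 6 of 9 tested wrt genes, 9 of 15 grl genes, 4 of 12 grd genes and 10 of 22 ptr genes, which encode the receptors. The medians of these branches were 3.18 for wrt, 2.67 for grl, 2.61 for grd and 2.01 for ptr genes. wrt-1 had 63.9 and 123 CPM in ced-3 worms, against 8.74 and 4.66 CPM in WT worms. grl-15 had 53.4 and 82.9 CPM in ced-3 worms, against 3.77 and 2.75 CPM in WT worms, a fold of 4.39 ± 0.50. The patched-related ptr-2 had 53.2 and 167 CPM in ced-3 worms, against 13.2 and 8.78 CPM in WT worms, and the patched homologue ptc-3 had 183 and 425 CPM in ced-3 worms, against 75.5 and 67.8 CPM in WT worms. None of these 4 genes overlapped between ced-3 and WT, as was so in the same direction for 3669 of the 12633 genes tested.

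**Figure D4:**
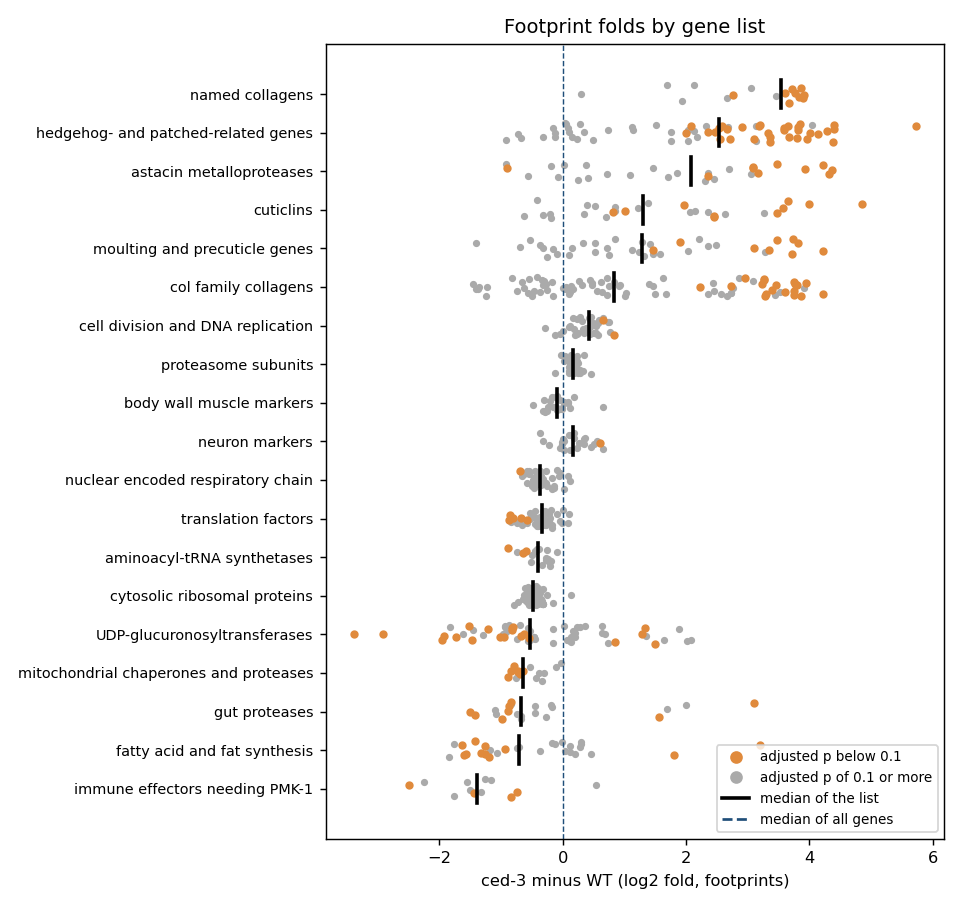
Fold of ced-3 over WT in footprints (log2) for every tested member of 19 gene lists, with the list's median as a black bar and the median of all genes as a dashed line; orange members have an adjusted p below 0.1. The medians run from 3.54 for the named collagens to -1.39 for the immune effectors, and the ribosomal protein, respiratory chain and translation factor lists lie in narrow bands mostly below 0.

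Immune genes did not share a direction. Past 0.1, 3.06% of all genes were lower, and 3.6% were by DESeq2. Of 12 tested immune effectors that need PMK-1 for their expression, 4 were lower past 0.1 and 5 by DESeq2, none was higher, and the median fold was -1.39. In 11 of the 12 both ced-3 libraries lay below both WT libraries, as 26.6% of all genes did. T24B8.5, the standard reporter gene of the pathway, had 6.26 and 7.47 CPM in ced-3 worms, against 18.6 and 18.9 CPM in WT worms, a fold of -1.45 ± 0.26 (adjusted p = 0.0597; DESeq2 adjusted p = 0.000841). irg-4 had 278 and 193 CPM in ced-3 worms, against 441 and 406 CPM in WT worms, a fold of -0.84 ± 0.21. dod-24 was the exception, with 28.2 and 30.1 CPM in ced-3 worms, against 17.5 and 22.8 CPM in WT worms. The ced-3 levels remained far above those of worms without PMK-1: set against pmk-1 footprints, 7 of the 12 were higher in ced-3 worms at 0.05, where 6.05% of all genes were, and the median was 2.77. The genes were listed because they need PMK-1, so low levels in pmk-1 worms follow from the choice of the list. irg-4 had 31.9 and 32.2 CPM in pmk-1 worms, and T24B8.5 had 0.976 and 1.61 CPM.

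Lysozymes, which break bacterial cell walls, split. Of 12 tested, 4 were higher and 1 lower past 0.1, and 4 and 2 by DESeq2, with a median of 0.39 that was 0.79 without WT replicate 2. lys-10 had 49.11 and 41.06 CPM in ced-3 worms, against 9.014 and 11.43 CPM in WT worms, a fold of 2.13 ± 0.22 (adjusted p = 0.0527). lys-7 had 134 and 158 CPM in ced-3 worms, against 43.32 and 64.02 CPM in WT worms. lys-1 had 419 and 341 CPM in ced-3 worms, against 762 and 738 CPM in WT worms. Neither direction overlapped. ilys-3, an invertebrate-type lysozyme, had 30 and 44 footprint counts in ced-3 worms, against 0 and 2 counts in WT worms. Of 91 tested C-type lectins, 5 were higher and 5 lower past 0.1 (5 and 6 by DESeq2), with a median of -0.16. Among all genes 6.37% were higher and 3.06% lower past 0.1 (6.8% and 3.6% by DESeq2). clec-65 had 38.6 and 41.5 CPM in ced-3 worms, against 99.2 and 94.7 CPM in WT worms. Of 21 tested saposin-like proteins, 5 were higher and 3 lower under each rule, with a median of -0.04. The highest fold there was that of spp-13, with 8.65 and 14.6 CPM in ced-3 worms, against 0.673 and 0.529 CPM in WT worms. Of 15 tested epidermal antimicrobial peptides, 1 was higher past 0.1 and 4 by DESeq2, none was lower under these 2 rules, and the median was 0.12. The count higher past 0.1 depended on the fit. It was 6 with the ced-3 and WT libraries fitted alone and 2 with replicate number as a block. The one past 0.1 in the reported fit was cnc-4, with 7.05 and 10.2 CPM in ced-3 worms, against 2.02 and 2.65 CPM in WT worms.

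Among detoxification genes the glucuronosyltransferases held the most calls. Past 0.1, 6.37% of all genes were higher and 3.06% lower, and by DESeq2 6.8% and 3.6%. Of 60 tested UDP-glucuronosyltransferases, 16 were lower and 4 higher past 0.1 (17 and 5 by DESeq2), with a median of -0.53 that was -0.34 without ced-3 replicate 2. ugt-31 had 5.32 and 3.68 CPM in ced-3 worms, against 51.3 and 42.4 CPM in WT worms, a fold of -3.38 ± 0.38. ugt-41 was higher, with 59.0 and 61.1 CPM in ced-3 worms, against 24.89 and 24.13 CPM in WT worms. Of 57 tested cytochromes P450, 3 were higher and 1 lower past 0.1 (2 and 2 by DESeq2), with a median of 0.08. Of 39 glutathione S-transferases, 2 were higher and 3 lower past 0.1 (1 and 4 by DESeq2), with a median of -0.05. cyp-25A2 had 11.2 and 11.6 CPM in ced-3 worms, against 20.6 and 25.6 CPM in WT worms, and gst-38 had 23.56 and 12.02 CPM in ced-3 worms, against 90.4 and 55.5 CPM in WT worms. Of 15 P-glycoproteins, pgp-6 and pgp-5 were lower past 0.1, 2 were lower by DESeq2 and none was higher under either rule, with a median of -0.22. pgp-5, a neighbour of pgp-6 on the X chromosome, had 26.5 and 9.64 CPM in ced-3 worms, against 191 and 206 CPM in WT worms, a fold of -3.47 ± 0.71 (adjusted p = 0.0725). pgp-7, which lies between them, had 0.266 and 0.433 CPM in ced-3 worms, against 1.21 and 1.69 CPM in WT worms. These were only 2 and 4 counts against 9 and 16 counts, and pgp-7 did not pass 0.1 (adjusted p = 0.1145). pgp-8, which also lies between them, was at a like level in both groups, with 2.00 and 1.52 CPM in ced-3 worms, against 2.02 and 2.33 CPM in WT worms.

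Genes for making fatty acids and fat were more often lower than higher. Of 29 tested, 9 were lower and 2 higher past 0.1 (11 and 2 by DESeq2), 19 had a fold below 0 and 10 above, with a median of -0.71 that shrank to -0.17 without WT replicate 2. Among all genes 3.06% were lower and 6.37% higher past 0.1 (3.6% and 6.8% by DESeq2). pod-2, the acetyl-CoA carboxylase that starts fatty acid synthesis, had 724 and 464 CPM in ced-3 worms, against 1745 and 1933 CPM in WT worms, a fold of -1.63 ± 0.25 (adjusted p = 0.0539). The elongases elo-5 and elo-6 make branched-chain fatty acids. elo-5 had 154 and 114 CPM in ced-3 worms, against 366 and 430 CPM in WT worms, a fold of -1.57 ± 0.21. elo-6 had 198 and 152 CPM in ced-3 worms, against 471 and 591 CPM in WT worms, a fold of -1.60 ± 0.20. Of the 7 elongases tested 4 were lower past 0.1 and 1 was higher. acs-3, an acyl-CoA synthetase, was higher, with 16.8 and 17.3 CPM in ced-3 worms, against 4.17 and 5.50 CPM in WT worms, a fold of 1.81 ± 0.21 (adjusted p = 0.0528). Of 18 tested glycolytic genes 2 were lower under each rule, and the median was -0.36. One past 0.1 was ipgm-1, a phosphoglycerate mutase, with 299 and 288 CPM in ced-3 worms, against 448 and 481 CPM in WT worms.

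Among proteases of the gut lumen and lysosome more were lower than higher in footprints, and the mRNA folds were smaller. Of 21 tested, 6 were lower and 2 higher past 0.1 (7 and 3 by DESeq2), with a median of -0.68 in footprints, against a median of -0.05 in mRNA. The shares of all genes were 3.06% lower and 6.37% higher past 0.1 (3.6% and 6.8% by DESeq2). All 6 lower genes were aspartyl proteases, and all 11 tested aspartyl proteases had a fold below 0. asp-6 had 452 and 404 CPM in ced-3 worms, against 1233 and 1191 CPM in WT worms, a fold of -1.50 ± 0.18 (adjusted p = 0.0528; DESeq2 adjusted p = 1.56e-10). In mRNA asp-6 had 845 and 681 CPM in ced-3 worms, against 830 and 1010 CPM in WT worms, a fold of -0.27. asp-1 had 1230 and 1143 CPM in ced-3 worms, against 3533 and 2853 CPM in WT worms, a footprint fold of -1.43 ± 0.18 beside an mRNA fold of -0.20. The footprint groups were apart for both genes and the mRNA groups overlapped.

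**Figure D5:**
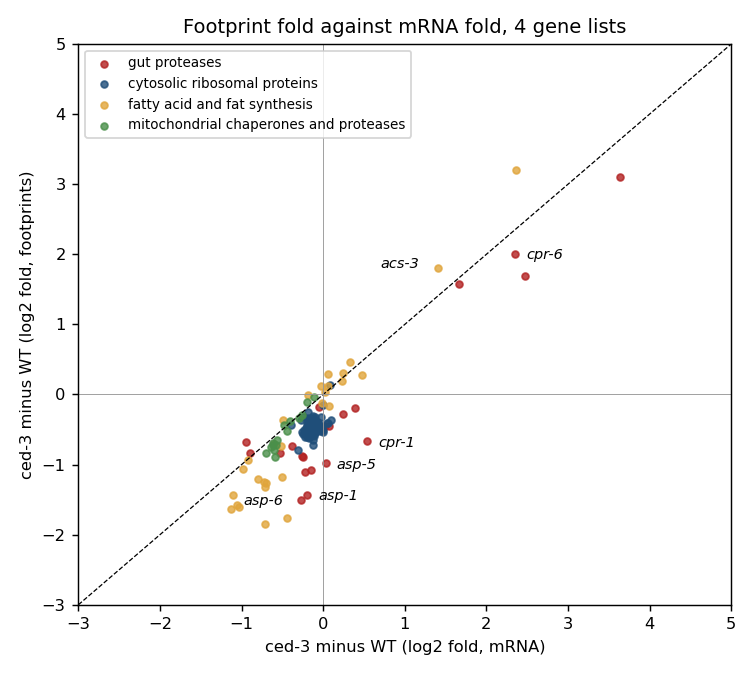
Fold of ced-3 over WT in mRNA (x axis, log2) and in footprints (y axis, log2) for the members of 4 gene lists, with the dashed line where both folds are equal. The aspartyl proteases asp-1, asp-5 and asp-6 and the cathepsin B-like cpr-1 lie below the line, while cpr-6 and acs-3 lie in the upper right with higher footprints and higher mRNA.

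Translation efficiency, the footprint fold beyond the mRNA fold, was tested directly for all genes. No gene passed 0.05 by edgeR (0.0% of 13698), with 221 genes at an unadjusted p below 0.05, and DESeq2 called 1 gene, asp-6, with a value of -1.21 (adjusted p = 0.0272). By edgeR the value of asp-6 was -1.17 ± 0.23 and that of asp-1 was -1.17 ± 0.26. The labels tie the mRNA and footprint libraries of a replicate to the same worms, and with the worm sample as a block 3 genes passed. These were cpr-1, with -1.15 ± 0.16, C32F10.4, with -1.36 ± 0.21, and C23H3.9, with 1.56 ± 0.23, each at an adjusted p of 0.0338; asp-6 then had 0.0605. C23H3.9 had 32.6 and 54.3 footprint CPM in ced-3 worms, against 4.98 and 4.13 CPM in WT worms, and 16.5 and 24.3 mRNA CPM in ced-3 worms, against 5.95 and 6.18 CPM in WT worms. Of the 1192 genes past 0.1 in footprints, 1178 were also tested in mRNA and 1172 of these had a fold of the same sign there, and 206 passed 0.05 in mRNA. The named collagens had a median of -0.03 in translation efficiency and the hedgehog and patched list 0.19, beside 0.06 for all genes.

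Genes of the translation machinery mostly had small folds below 0. Their calls differed by list, where 3.06% of all genes were lower past 0.1 and 3.6% by DESeq2. Of 81 tested cytosolic ribosomal proteins, 80 had a fold below 0, with a median of -0.47, but none passed under either rule. The footprint share of the list was 4.18% and 6.76% in ced-3 worms, against 6.24% and 7.87% in WT worms, so the groups overlapped. All 81 had fewer footprints in ced-3 replicate 1 than in replicate 2, and the median fold was -0.98 without replicate 2 and -0.11 without replicate 1. rla-1, an acidic stalk protein of the large subunit, had 513 and 681 CPM in ced-3 worms, against 904 and 960 CPM in WT worms. In mRNA the ribosomal proteins had a median of -0.14. Of 44 tested translation factors, 5 were lower past 0.1 and 7 by DESeq2, with a median of -0.34. eef-1A.2, an elongation factor that brings aminoacyl-tRNA to the ribosome, had 1553 and 1742 CPM in ced-3 worms, against 3156 and 2889 CPM in WT worms, a fold of -0.88 ± 0.17 (adjusted p = 0.0648). Of 20 aminoacyl-tRNA synthetases, 3 were lower past 0.1 and 4 by DESeq2, and all 20 had a fold below 0, with a median of -0.40. sars-1, the seryl-tRNA synthetase, had 230 and 295 CPM in ced-3 worms, against 452 and 520 CPM in WT worms. Proteasome subunits did not share this direction: none of 32 passed under either rule, and their median was 0.17 but -0.02 without ced-3 replicate 2.

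Of the mitochondrial lists, the chaperones and proteases had the largest share of lower genes under each rule. Of 15 tested mitochondrial chaperones and proteases, 7 were lower under each rule and all 15 had a fold below 0, with a median of -0.65. hsp-60, the mitochondrial chaperonin, had 1710 and 1642 CPM in ced-3 worms, against 2878 and 2928 CPM in WT worms, a fold of -0.79 ± 0.16 (adjusted p = 0.0656). hsp-6, the mitochondrial Hsp70, had 1163 and 954 CPM in ced-3 worms, against 1862 and 1916 CPM in WT worms. timm-23, a channel of protein import, had 96.0 and 88.6 CPM in ced-3 worms, against 155 and 187 CPM in WT worms. None of these overlapped, and the median of the list stayed between -0.70 and -0.55 in all settings tried. Of 66 mitochondrial ribosomal proteins, 2 were lower past 0.1 and 3 by DESeq2, near the share of all genes, and 65 had a fold below 0, with a median of -0.32. Of 45 nuclear encoded subunits of the respiratory chain, 1 was lower past 0.1 and 8 by DESeq2, with a median of -0.37. None of the 11 tested genes encoded in the mitochondrion itself passed under either rule. The footprint share of all 12 listed was 0.0173% and 0.00572% in ced-3 worms, against 0.00899% and 0.0157% in WT worms, and the groups overlapped.

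Lists of chaperones outside the mitochondrion were short and held some lower genes. Of all genes tested, 3.06% were lower past 0.1 and 3.6% by DESeq2. Of 11 cytosolic heat shock proteins, with a median of -0.29, 2 were lower by DESeq2 and 1 past 0.1, hsp-90, with 2895 and 3005 CPM in ced-3 worms, against 4884 and 4282 CPM in WT worms. Of 16 genes of the endoplasmic reticulum stress response 2 were lower past 0.1 and 3 by DESeq2, with a median of -0.28 that was -0.55 without ced-3 replicate 2. crt-1, the lumenal chaperone calreticulin, had 974 and 1201 CPM in ced-3 worms, against 2123 and 1918 CPM in WT worms. Of 20 DAF-16 targets 3 were higher and 1 lower under each rule, with a median of 0.26. The lower one past 0.1, the sphingomyelinase asm-2, had 20.5 and 18.2 CPM in ced-3 worms, against 44.1 and 39.4 CPM in WT worms.

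In the reported fit and by DESeq2, genes of cell division and chromatin had no larger share of calls than all genes. The shares of all genes that were higher were 6.37% past 0.1 and 6.8% by DESeq2. Of 37 tested genes of cell division and DNA replication, 2 were higher past 0.1 and 1 by DESeq2. Of these genes 34 had a fold above 0, with a median of 0.42 that was 0.27 without ced-3 replicate 2. air-1, the Aurora A kinase of the spindle, had 46.3 and 64.9 CPM in ced-3 worms, against 31.2 and 31.2 CPM in WT worms, a fold of 0.83 ± 0.20. Of 38 tested histone genes, with a median of 0.22, 1 was higher under each rule. Past 0.1 it was his-37, with 116 and 110 CPM in ced-3 worms, against 77.4 and 78.6 CPM in WT worms; histone copies are nearly identical, so the single gene is uncertain.

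The pathways closest to the mutated gene had few or no calls. Of all genes tested, 9.44% passed 0.1 and 10.4% passed by DESeq2, so lists this short would hold few calls at those shares. Of 24 tested cell death and caspase genes, with a median of -0.16, 1 was higher under each rule. Past 0.1 it was ces-1, a transcription factor that governs the death of particular neurons, with 1.46 and 3.79 CPM in ced-3 worms, against 0.269 and 0.212 CPM in WT worms. None of 17 heterochronic genes, which time larval development, passed under either rule. lin-14 had 101 and 103 CPM in ced-3 worms, against 88.4 and 72.4 CPM in WT worms, with no overlap and a fold of 0.34 ± 0.17 (adjusted p = 0.278). lin-28 had 15.2 and 20.5 CPM in ced-3 worms, against 20.9 and 21.2 CPM in WT worms. The member with the smallest p was daf-12, a steroid receptor, with 71.34 and 53.95 CPM in ced-3 worms, against 106 and 93.5 CPM in WT worms. None of 15 p38 pathway genes passed under either rule, and pmk-1 itself had 42.6 and 48.5 CPM in ced-3 worms, against 47.2 and 52.3 CPM in WT worms. tpa-1, a protein kinase C upstream of the pathway, had 141 and 186 CPM in ced-3 worms, against 123 and 97.7 CPM in WT worms.

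Markers of tissues were read across whole worms, where fewer cells of a type and less RNA per cell cannot be told apart. The shares of all genes were 6.37% higher and 3.06% lower past 0.1 (6.8% and 3.6% by DESeq2). Body wall muscle markers took 3.758% and 4.052% of footprints in ced-3 worms, against 3.756% and 3.998% in WT worms, and none of 27 passed under either rule; unc-120 had 47.1 and 76.9 CPM in ced-3 worms, against 36.5 and 42.6 CPM in WT worms. Of 26 neuron markers none passed by DESeq2 and 1 was higher past 0.1, unc-13, a factor of synaptic release, with 37.7 and 41.8 CPM in ced-3 worms, against 27.9 and 24.7 CPM in WT worms. Intestine markers took 0.804% and 0.618% of footprints in ced-3 worms, against 1.18% and 1.06% in WT worms, and of 23 tested 6 were lower and 1 higher past 0.1 (7 and 2 by DESeq2), with a median of -0.38. ifb-2, an intermediate filament of the gut brush border, had 334 and 231 CPM in ced-3 worms, against 1081 and 1037 CPM in WT worms, a fold of -1.91 ± 0.24 (adjusted p = 0.0528). Not all gut genes were lower: the gut esterase ges-1 had 98.4 and 106 CPM in ced-3 worms, against 90.8 and 79.7 CPM in WT worms. The intestine list holds asp-1 and was low beside the gut proteases, the fat synthesis genes and the glucuronosyltransferases, and its part in those results was not tested. Epidermal markers had 2 of 15 higher past 0.1 and 4 by DESeq2, one of them wrt-2, and a median of -0.05, beside the higher cuticle genes. Pharynx markers had 2 of 17 higher under each rule, 1 lower by DESeq2 and a median of -0.30. Among them phat-2, a mucin-like secreted protein of pharyngeal gland cells, had 161 and 450 CPM in ced-3 worms, against 38.2 and 19.6 CPM in WT worms. Of 36 germ line markers, with a median of 0.14, 1 was higher under each rule. Past 0.1 it was pos-1, with 32 and 38 counts in ced-3 worms, against 1 and 0 counts in WT worms. This gene passed the filter on low counts only through the ced-3 libraries. No sperm marker passed the filter on low counts, and of the vitellogenins, yolk proteins of adults, only vit-1 did, with 1.46 and 4.55 CPM in ced-3 worms, against 0.807 and 1.27 CPM in WT worms.

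Set against pmk-1 in place of WT, 764 genes were higher and 324 lower in ced-3 footprints at 0.05, 6.05% and 2.56% of genes tested. This comparison uses the same ced-3 libraries as the one with WT. Of the 805 genes higher than WT past 0.1, 544 were also higher than pmk-1 at 0.05, and of the 387 lower genes 173 were also lower than pmk-1 and 11 were higher. Among the cuticle lists the named collagens had a median of 3.31 against pmk-1 and 3.54 against WT, the hedgehog and patched list 2.304 and 2.541, the astacins 2.21 and 2.08, the col family 1.55 and 0.84 and the cuticlins 1.19 and 1.30. The moulting and precuticle genes differed, with -0.01 against pmk-1 and 1.29 against WT, and 6 of them were higher and 4 lower than in pmk-1 worms at 0.05. The 2 pmk-1 libraries lay apart in this list, with medians of 1.34 and 0.45 over the WT mean. In the col family these medians were -1.35 and -0.12, and in the astacins -0.94 and -0.14. Such values against pmk-1 therefore depend on the pmk-1 library. Collagen processing enzymes had 0.06 against pmk-1 and 0.61 against WT. The mitochondrial chaperones and proteases had -0.70 and -0.65, and the genes encoded in the mitochondrion 1.55 and -0.34. None of the 11 tested genes encoded in the mitochondrion differed from pmk-1 at 0.05. Their ced-3 replicate 2 lay below replicate 1, with a median difference of -1.23 on the log2 scale.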

How the data were processed

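Per the file headers, the authors deposited 1 table of raw counts, whole numbers that were not normalized, for 46778 genes in 12 libraries. Per the submitters' processing notes, Bowtie2, STAR and HTSeq were used with the build WBcel235; versions, annotation, strand use and how reads with several matches were handled are not given in the sources used here, so reads of near-identical or overlapping genes are uncertain for the single gene. WormBase identifiers of 46603 genes were matched to an annotation of WBcel235, which gave the coordinates, and 43818 to a name.

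Differences in counts were tested in R 4.3.3 by the quasi-likelihood test of edgeR 4.0.16 (glmQLFTest after a robust glmQLFit), with library sizes scaled by TMM. Genes were kept by filterByExpr (min.count 10, min.total.count 15), and p-values were adjusted by Benjamini-Hochberg over every gene kept, at a threshold of 0.05. The 6 footprint libraries formed 1 fit, the 6 mRNA libraries another, and translation efficiency was tested as a genotype by assay interaction with the 12 libraries together. CPM used TMM-scaled library sizes. Standard errors are absolute folds over the root of F. The lowest and highest depth of the 4 libraries was 6708805 and 9743628 counts, and 3 counts in a library came to 0.318 to 0.404 CPM. Replicates differed by more than sampling noise in every group. The steps were tested on simulated counts with known folds.

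Alternatives were DESeq2 1.42.0, RLE factors, a fit without the robust option, the replicate block, every gene with counts, only protein coding genes, only the libraries of the pair compared, and each library left out; the threshold of 0.1 and a minimum fold of 2 with DESeq2 were added after the data were seen. The comparison, the gene lists and the rules were chosen with earlier results of these data known. Named genes were the 12 largest rises and 12 largest falls past 0.05 whose libraries did not overlap and whose mean reached 5 CPM (7 qualified), ced-3, up to 4 members past the threshold in each list or, with none, its member of lowest p, and in each direction up to 4 genes past the test of translation efficiency; others were named after their values were seen. No table with sequences was given here, so none is printed.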

Additional observations from a re-analysis of the deposited data

Results flagged for a closer look

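cpr-1, a cathepsin B-like protease of the gut, had a footprint fold and an mRNA fold of opposite sign. Its footprints were 328 and 259 CPM in ced-3 worms, against 494 and 439 CPM in WT worms, and its mRNA was 523 and 418 CPM in ced-3 worms, against 335 and 312 CPM in WT worms. Both footprint libraries of ced-3 worms were lower than both of WT worms and both mRNA libraries were higher. The difference between the 2 folds was -1.15. It did not pass edgeR's test over all 12 libraries (unadjusted p = 0.00271, adjusted p = 1) or DESeq2 (adjusted p = 0.419), and it passed with the worm sample as a block (-1.15 ± 0.16, adjusted p = 0.0338).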

How the results depend on the processing

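The number of genes called is the least stable result. For ced-3 against WT footprints it was 7 in the reported fit and with RLE factors, 1314 with DESeq2 (994 at a fold of at least 2), 1012 with no filter on low counts, 198 with the ced-3 and WT libraries alone, 185 with protein coding genes alone, 327 without the robust option, 1192 at an adjusted p below 0.1, and 0 to 1249 when 1 library was left out. It was 0 without either WT library, and leaving out the second ced-3 library gave 142, the first 1249. The 7 genes kept their direction in all of these and stayed past 0.05 except without WT replicate 1 (adjusted p = 0.268), without WT replicate 2 (0.404) and with the block. Against pmk-1 the count was 1088, with 1916 by DESeq2, 1713 without the filter and 0 to 1548 with a library left out. In mRNA it was 240, with 1337 by DESeq2, 827 without the filter and 0 to 1479 with a library left out. For translation efficiency it was 0 in the reported fit and 1 by DESeq2, and 0 to 0 with a worm sample left out. The cause of these shifts was not tested. The fold of ced-3 itself ran between -0.36 and 0.54 with a library left out, turning to -0.21 without ced-3 replicate 1 and to -0.36 without WT replicate 2. Of 42 lists, 32 kept the sign of their median in all 12 settings, and 10 did not; of these the mitochondrially encoded genes ran from -1.21 to 0.11.

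Replicate numbers did not pair the footprint libraries: deviations from the group means correlated across genes at 0.01 between ced-3 and WT and at 0.10 between ced-3 and pmk-1. With the replicate block the calls were 0 against WT (adjusted p of the 7 genes 0.0516 to 0.0525), 496 against pmk-1 and 0 in mRNA. Same worms link mRNA and footprints by label, where the correlation was 0.69 in ced-3 and 0.20 in WT worms, and the worm sample as a replicate block gave 3 calls in translation efficiency.

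The fit rested on 2 libraries a group, and totals of 6708805 to 9743628 counts limit the precision of weakly expressed genes.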

Other observations

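Among 151 gene families with at least 8 tested members, formed from gene names after the values were seen, some outside the lists above had many members past 0.1. Past that threshold, 6.37% of all genes were higher and 3.06% lower. The families named here were picked from the 151 by their values, so their counts are descriptive only. Of 11 tested lips genes, which encode lipases, 6 were higher and none lower, with a median fold of 2.07. Of 9 tested cdh genes, which encode cadherins, 4 were higher and none lower, with a median of 1.39. Of 8 tested bus genes, in which mutations alter the worm surface that bacteria bind, 3 were higher and all 8 had a fold above 0. Of 10 tested abu genes, which encode glutamine- and asparagine-rich proteins of which some line the pharynx, all had a fold above 0 and 3 were higher; abu-14 had 412 and 1293 CPM in ced-3 worms, against 110 and 46.2 CPM in WT worms. Lower families included mrp transporters, with 4 of 8 lower, acl acyltransferases, with 4 of 12 lower, and subunits of the vacuolar proton pump, with 3 of 20 lower and 19 of 20 folds below 0. vha-8 had 560 and 558 CPM in ced-3 worms, against 848 and 801 CPM in WT worms.

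Some single genes stood apart and were named after their values were seen. glp-4, which encodes the valyl-tRNA synthetase, had 523 and 500 CPM in ced-3 worms, against 1465 and 1750 CPM in WT worms, a fold of -1.65 ± 0.19 (adjusted p = 0.0528). It lies apart from the other tRNA synthetases, whose folds reached -0.89 at the lowest. srw-85, a predicted chemoreceptor, had 46 and 66 footprint counts in ced-3 worms, against 0 counts in both WT libraries, at least 37.3-fold higher with 3 counts over the WT group as the limit. clec-63, a C-type lectin, had 636 and 611 footprint CPM in ced-3 worms, against 1685 and 1309 CPM in WT worms, beside mRNA of 721 and 596 CPM in ced-3 worms, against 592 and 749 CPM in WT worms.

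Genes past 0.1 were spread unevenly over the chromosomes: on X 152 were higher and 80 lower of 1964 tested, on II 154 and 72 of 2049, and on V 193 and 97 of 2563, against 88 and 44 of 1981 on I, 81 and 39 of 2006 on III, 134 and 55 of 2017 on IV, and none of 17 on the mitochondrial genome.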
